A study of Mus musculus with 8 samples.

Results

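Cholesterol synthesis and transport genes were followed as a group of 38 genes. They were chosen by name for their known place in cholesterol metabolism, with earlier results of these data known. Of these, 34 had a probe set annotated to that gene alone in the platform annotation and were measured, out of 12393 genes measured in all. They comprised 18 of 19 synthesis enzymes, 3 of 5 genes of sterol sensing and control, and 13 of 14 genes of transport, storage and turnover. Acat2, Insig1, Nr1h2 and Soat1 were not analysed here. Where a gene had several probe sets, the one of highest mean value stood for it.

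The samples were hippocampi of 8 male SCID mice aged 12 weeks, a strain without mature B and T lymphocytes. All 8 mice went through contextual fear conditioning and were killed 1 hour after the consolidation test. FTY720 (fingolimod), a sphingosine analogue whose phosphorylated form binds receptors for sphingosine-1-phosphate, was given by mouth in saline at 1 mg/kg on 3 days to 4 mice, and saline alone to the other 4, the last dose falling 17 hours before tissue was taken. RNA of each mouse was hybridised to an Affymetrix 3' expression array of its own, so the replicates are animals. Mice are named by their label numbers, FTY720 1, 4, 5 and 6 and vehicle 13, 14, 15 and 16.

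The adult brain makes nearly all of its own cholesterol, because lipoproteins of the blood do not cross the blood-brain barrier. Acetyl units are joined and reduced to mevalonate, built up to isoprenoids and squalene, closed into the first sterol, lanosterol, and trimmed to cholesterol, and when membrane sterol is low the transcription factor SREBP-2 turns on this whole set of enzymes. Astrocytes pass cholesterol to neurons on particles that carry apolipoprotein E, oligodendrocytes build it into myelin, and neurons dispose of it by making 24-hydroxycholesterol. Oxysterols activate the liver X receptors, which raise export pumps and lower uptake receptors.

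Of 7 measured hippocampal marker genes 6, and 8 of 9 measured neuron markers lay above the median level of all genes, 7.17 on the log2 scale. Vehicle 15 stood apart in markers of neighbouring tissue, with a list mean of 1.40 for the thalamus (9 of 10 genes measured) and 1.20 for the striatum (7 of 10), as log2 distance from the mean of the 8 mice. In the other mice the highest values were 0.25 and 0.34. Choroid plexus markers (8 of 10 measured) varied in both groups, with list means of 0.97, -1.24, 0.65 and -1.35 in FTY720 1, 4, 5 and 6 and -0.38, 0.84, 1.49 and -0.98 in vehicle 13, 14, 15 and 16, so vehicle 15 was not the only mouse high in markers of neighbouring tissue. Vehicle 16 had the steepest loss of signal from the 3' to the 5' end, with a Gapdh control difference of -1.46. Vehicle 13, 14 and 15 stood at -1.09, -1.18 and -1.07, and FTY720 1, 4, 5 and 6 at -1.08, -0.80, -1.05 and -0.85. The loss leaned to the vehicle arrays, with FTY720 1 and vehicle 15 overlapping, and its part in any difference was not tested. Array medians lay between 6.68 and 6.72. The number of mice limits the precision, with a median standard error (SE) of 0.07 over all genes for the difference between the groups.

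The comparison of FTY720 with vehicle asked how hippocampal transcripts of conditioned mice differ between drug and saline. The synthesis enzymes had nearly equal values in both groups, with a median difference (FTY720 minus vehicle, log2) of -0.0030, and the transport, storage and turnover genes had a median of 0.050, where the median of all genes was 0.0072. The transport median was -0.0075 without probe sets that can match several transcripts. That setting also lost Apoe, Scarb1 and Abcg4, whose probe sets are all of that kind and which stood at 0.04, 0.06 and 0.11. The change of sign therefore mixes lost genes with changed probe sets. The ubiquitin ligase gene Mylip stood furthest from 0 among the members, at 0.26 (SE 0.08), a ratio of 1.20. The efflux transporter gene Abcg4 stood at 0.11 (SE 0.05) and the synthesis enzyme gene Mvd at -0.14 (SE 0.06). In limma's moderated test with Benjamini-Hochberg adjustment over all genes, no member passed an adjusted p of 0.05, and the lowest adjusted p among them was 0.717. No other gene passed either, so the share called was 0% over all 12393 genes.

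At an unadjusted p under 0.05, 3 of the 34 members (8.82%) were counted, 2 higher and 1 lower, beside 6.64% of all genes, with 3.86% higher and 2.78% lower. For 2 of the 34 (5.88%) the ranges of FTY720 and vehicle mice were separate, with 2 higher and 0 lower, beside 4.49% of all genes, with 2.72% higher and 1.78% lower. Both shares lay close to the background, and neither is a result about the members. Without FTY720 1, FTY720 6 or vehicle 16 in turn, the first count was 1, and without vehicle 15 and 16 together it was 0. In those fits the counts over all genes were 669, 640, 712 and 706, against 823 with all mice. The count without overlap was 4 without FTY720 5 or vehicle 15, and 5 without vehicle 14 or without vehicle 15 and 16 together. Groups of fewer mice separate more easily, and the share of all genes without overlap was not counted with mice left out. These counts therefore cannot be set beside the 4.49% and are not a result about the members. The median of the transport genes was 0.027 without FTY720 1 or vehicle 13, 0.016 without FTY720 4, 0.077 without FTY720 6 and 0.018 without vehicle 16, and 0.014 without both doubted arrays, vehicle 15 and 16.

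The 95% intervals of the differences show how much room the data leave. For 32 of the 34 members the interval lay wholly within 0.32 on the log2 scale in either direction. The exceptions were Fdps, whose interval reached 0.34, and Mylip, whose interval reached 0.44. For all 34 the interval lay within 0.58. These intervals are not adjusted for the number of genes.

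**Figure D1:**
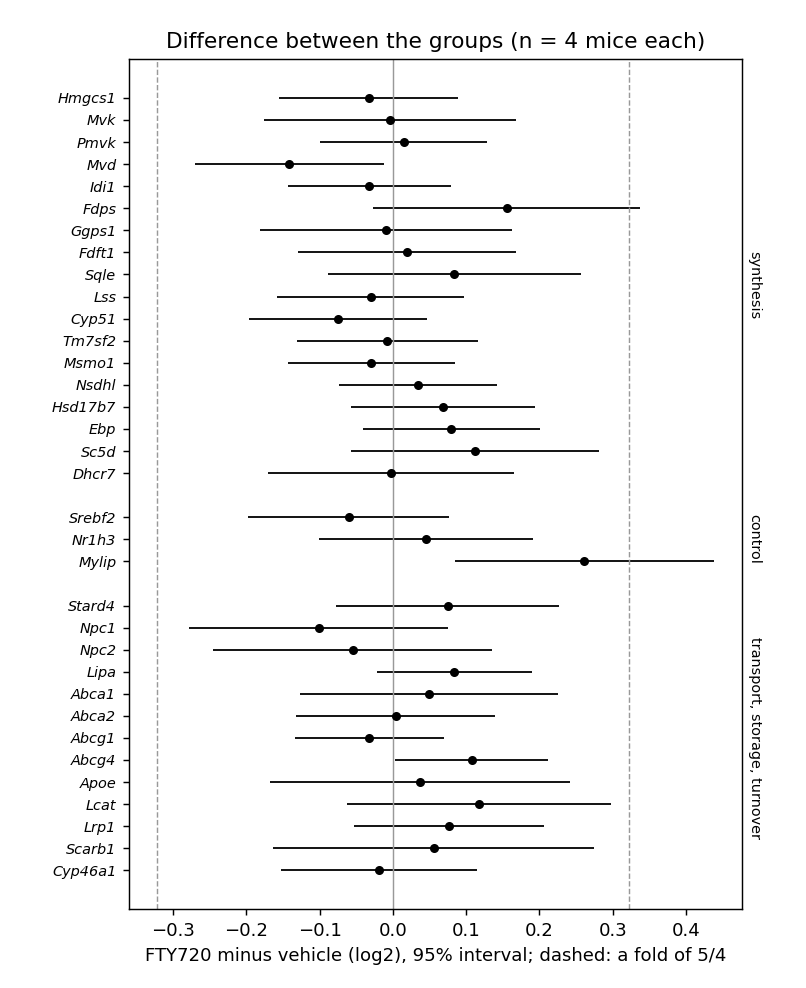
Difference between FTY720 and vehicle mice for each measured member on the log2 scale (horizontal axis), with points for the fitted difference, bars for the 95% interval and dashed lines at 0.32 above and below 0; genes are grouped by role, n = 4 mice per group. The bars of Mylip, Mvd and Abcg4 do not cross 0, and those of Mylip and Fdps pass the upper dashed line.

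The promoters of the members were read for the letters that sterol control is known to use. RefSeq windows on GRCm38.p6, from 250 bases before to 50 after a gene's start, were found for 30 of the 38 members, and 26 measured members had one. Counts of members below include unmeasured ones, while shares over measured genes do not. SREBPs bind next to NF-Y, whose core is CCAAT, and this core was found on either strand in the windows of 15 of the 16 synthesis enzymes with a window. Over all measured genes with a window it was found in 42.3%, and over single windows in 15 of 19 for the synthesis enzymes and 37.4% of all 32851. In the transport group 5 of 9 genes held it, and in the control group 3 of 5. The SREBP letters TCACNCCAC, searched on either strand, were found in 1 member, Hmgcs1, 137 bases before the start (at -137), and in 1.24% of all windows. A match is a description and not a binding site, and its absence says only that these letters are not in this window.

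The windows below show Hmgcs1, the 1 member with the SREBP letters, Mvd, the synthesis enzyme of smallest p, and Mylip, the member of largest difference. Letters are 5′ to 3′ on the gene's strand, and capitals mark CCAAT or its reverse complement and, in Hmgcs1, TCACCCCAC. The windows are chr13:119690101-119690400 (plus strand) for Hmgcs1, chr8:122443373-122443672 (minus strand) for Mvd and chr13:45389492-45389791 (plus strand) for Mylip.
Hmgcs1: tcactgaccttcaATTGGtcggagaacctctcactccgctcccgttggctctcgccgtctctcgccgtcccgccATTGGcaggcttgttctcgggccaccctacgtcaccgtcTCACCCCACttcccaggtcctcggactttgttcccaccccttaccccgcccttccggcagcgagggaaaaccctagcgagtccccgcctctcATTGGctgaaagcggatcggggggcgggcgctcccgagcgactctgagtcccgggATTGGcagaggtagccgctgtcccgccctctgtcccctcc
Mvd: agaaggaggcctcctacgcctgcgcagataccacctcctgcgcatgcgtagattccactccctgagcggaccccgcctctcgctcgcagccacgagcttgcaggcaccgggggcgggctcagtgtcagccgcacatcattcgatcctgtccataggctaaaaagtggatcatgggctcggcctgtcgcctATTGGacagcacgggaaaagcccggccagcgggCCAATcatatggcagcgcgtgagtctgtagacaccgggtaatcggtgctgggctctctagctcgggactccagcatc
Mylip: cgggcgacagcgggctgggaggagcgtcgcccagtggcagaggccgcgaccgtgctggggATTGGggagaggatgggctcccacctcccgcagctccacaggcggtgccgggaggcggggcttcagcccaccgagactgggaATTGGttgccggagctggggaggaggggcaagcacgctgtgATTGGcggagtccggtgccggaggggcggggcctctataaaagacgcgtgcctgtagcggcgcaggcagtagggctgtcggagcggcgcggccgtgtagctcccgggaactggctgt
Hmgcs1, with 4 NF-Y cores beside the SREBP letters, differed by -0.03 between the groups, and Mylip, with 3 cores and no SREBP letters, by 0.26. Mvd held 2 cores.

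The first enzymes of synthesis lead from acetyl units to the isoprenoid building blocks. Hmgcs1, which makes HMG-CoA, a precursor of mevalonate, had log2 values of 11.76, 11.65, 11.81 and 11.68 in FTY720 1, 4, 5 and 6. In vehicle 13, 14, 15 and 16 its values were 11.81, 11.80, 11.75 and 11.68. The groups overlapped over nearly their whole range, and the difference was -0.03 (SE 0.05), with a 95% interval from -0.15 to 0.09. Its other 3 probe sets also had differences below 0.

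The kinases that phosphorylate mevalonate followed. Mvk stood at -0.0039 (SE 0.08), with 0.05 from its second probe set, and Pmvk at 0.01 (SE 0.05). Mvk varied more among FTY720 mice (SD 0.16) than among vehicle mice (SD 0.03), with FTY720 5 lowest at 6.54 and FTY720 1 highest at 6.92.

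Mvd, the decarboxylase that ends this stretch by making isopentenyl diphosphate, was the synthesis enzyme of smallest p. Its values were 6.84, 6.90, 6.92 and 6.87 in FTY720 1, 4, 5 and 6, and 6.91, 7.12, 6.97 and 7.09 in vehicle 13, 14, 15 and 16. The FTY720 mice lay close together, and FTY720 5 lay just above vehicle 13, so the groups touched. The difference was -0.14 (SE 0.06, limma unadjusted p = 0.0354, adjusted p = 0.735). The second probe set of Mvd, dimmer at a mean of 6.40 against 6.95, pointed the other way. It gave 6.40, 6.42, 6.49 and 6.62 in the FTY720 mice and 6.42, 6.61, 6.09 and 6.14 in the vehicle mice, a difference of 0.17 (SE 0.11). The mean of both sets differed by 0.013, so no direction could be read for this gene.

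Idi1, which isomerises isopentenyl diphosphate, stood at -0.03 (SE 0.05). Fdps, which builds farnesyl diphosphate, the branch point between sterols and other isoprenoids, had the largest difference above 0 among the synthesis enzymes, 0.16 (SE 0.08, limma adjusted p = 0.778). Vehicle 16 was its lowest mouse at 7.55, with the other 7 between 7.81 and 8.02, and without it the difference was 0.08. The second, far dimmer probe set of Fdps stood at -0.04 (SE 0.08), and the mean of both sets differed by 0.06. Ggps1, which takes farnesyl diphosphate to the lipid anchor of small GTPases, stood at -0.01 (SE 0.08), and its other 3 probe sets also lay below 0.

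Fdft1, squalene synthase, commits farnesyl diphosphate to sterols. Its values were 10.49, 10.40, 10.60 and 10.45 in FTY720 1, 4, 5 and 6. In vehicle 13, 14, 15 and 16 they were 10.46, 10.51, 10.32 and 10.56. The highest mouse was an FTY720 mouse and the lowest a vehicle mouse, with full overlap between, and the difference was 0.02 (SE 0.07). Further probe sets of Fdft1 stood at -0.01, -0.10 and 0.02.

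Sqle, squalene epoxidase, is a rate-limiting oxygenase of the pathway. It gave 9.36, 9.34, 9.54 and 9.33 in FTY720 1, 4, 5 and 6, and 9.44, 9.39, 9.24 and 9.16 in vehicle 13, 14, 15 and 16. FTY720 5 stood above all others and vehicle 15 and 16 below them. The difference of 0.08 (SE 0.08) lay within its error, and without vehicle 15 and 16 it was -0.02. Lss, which closes squalene epoxide into lanosterol, stood at -0.03 (SE 0.06), while its other 2 probe sets lay at 0.11 and 0.14.

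The enzymes that trim lanosterol lay on both sides of 0. Cyp51, the lanosterol demethylase, stood at -0.08 (SE 0.05), with its further probe sets at -0.05 and 0.13. Msmo1 and Nsdhl, which remove the methyl groups at the fourth carbon together with Hsd17b7, stood at -0.03 (SE 0.05), 0.03 (SE 0.05) and, for Hsd17b7, 0.07 (SE 0.06). The sterol reductase Tm7sf2 stood at -0.0077 (SE 0.06) and the isomerase Ebp at 0.08 (SE 0.05). Sc5d, the lathosterol desaturase, stood at 0.11 (SE 0.08), and vehicle 16 was its lowest mouse at 7.73, with the other 7 between 7.97 and 8.11. Without vehicle 16 the difference of Sc5d was 0.04, and without vehicle 15 and 16 it was 0.02.

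Dhcr7 catalyses a last reduction, to cholesterol itself. Its values were 8.35, 8.28, 8.50 and 8.32 in FTY720 1, 4, 5 and 6. In vehicle 13, 14, 15 and 16 they were 8.47, 8.45, 8.36 and 8.19. The means of the groups were equal at 8.36 (SD 0.10 in FTY720 and 0.13 in vehicle mice, n = 4 each), with a difference of -0.0020 (SE 0.07). Of the 18 synthesis enzymes, 8 lay above 0 and 10 below.

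**Figure D2:**
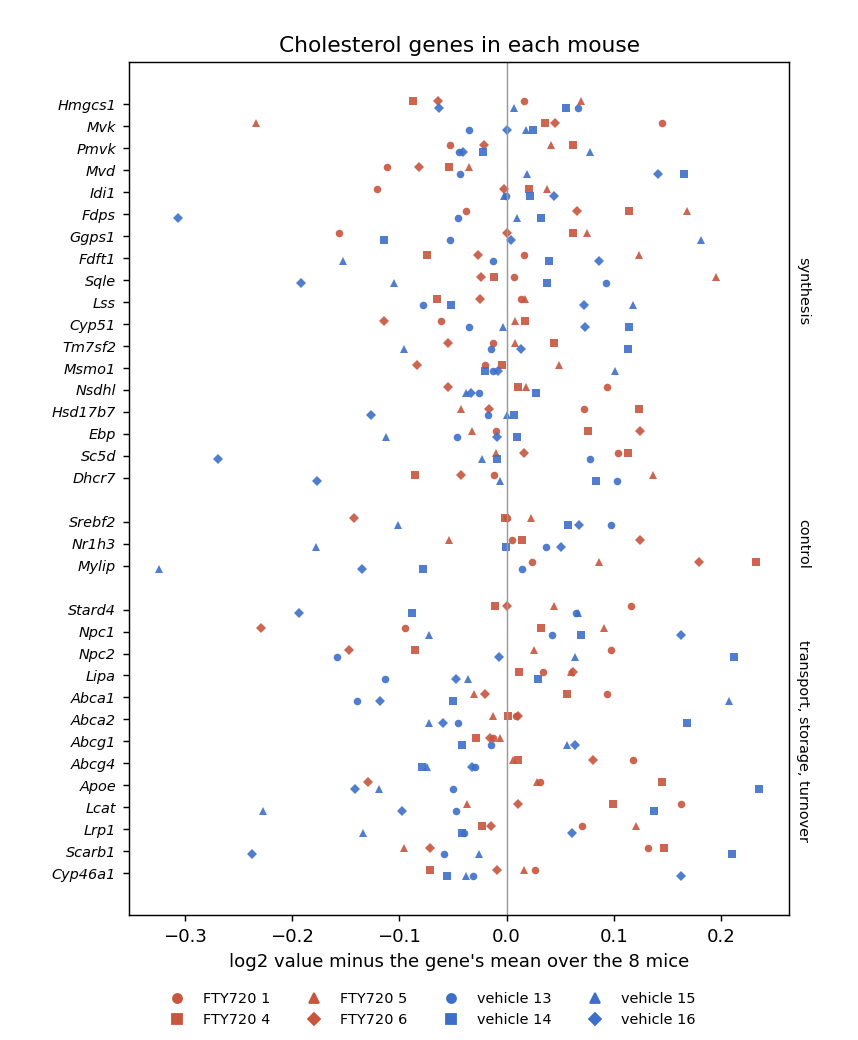
Log2 value of each member in each mouse, minus that gene's mean over the 8 mice (horizontal axis), with red symbols for FTY720 and blue for vehicle mice and 1 shape per mouse within a group. Red and blue points overlap in all members but Mylip and Abcg4, and the SD within a group ran from 0.0095 to 0.18.

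Among the genes of sterol sensing and control, Srebf2 encodes SREBP-2 itself. It gave 7.84, 7.84, 7.87 and 7.70 in FTY720 1, 4, 5 and 6, and 7.94, 7.90, 7.74 and 7.91 in vehicle 13, 14, 15 and 16. FTY720 6 and vehicle 15 were the low mice, 1 in each group, and the difference was -0.06 (SE 0.06), with -0.05 from the second probe set. The array measures the RNA of Srebf2 and not the cleaved, active factor. Nr1h3, liver X receptor alpha, was a dim gene, with a mean of 5.67 against a median of 7.17 over all genes, and stood at 0.05 (SE 0.06).

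Mylip encodes IDOL, a ubiquitin ligase induced by liver X receptors that marks lipoprotein receptors of the brain, the VLDL receptor and the apolipoprotein E receptor Lrp8 among them, for degradation. Its values were 8.84, 9.05, 8.90 and 9.00 in FTY720 1, 4, 5 and 6. In vehicle 13, 14, 15 and 16 they were 8.83, 8.74, 8.49 and 8.68. All 4 FTY720 mice lay above every vehicle mouse, with FTY720 1 just above vehicle 13, and vehicle 15 was lowest. Means were 8.95 ± 0.09 (SD, n = 4) and 8.69 ± 0.14 (SD, n = 4), and the difference was 0.26 (SE 0.08, limma unadjusted p = 0.00817, adjusted p = 0.717).

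Mylip ranked 137 by p among the 12393 genes. Without vehicle 15, the mouse with high thalamus and striatum markers, its difference was 0.20, and without vehicle 15 and 16 it was 0.16 (limma unadjusted p = 0.0573), and the part of neighbouring tissue in the difference was not tested further. It had no other probe set for comparison. The other liver X receptor targets among the members, Abca1, Abcg1 and Apoe, had differences of 0.05, -0.03 and 0.04. Of the receptors that IDOL acts on, Vldlr stood at -0.12 (SE 0.09) and Lrp8 at 0.19 (SE 0.09).

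**Figure D3:**
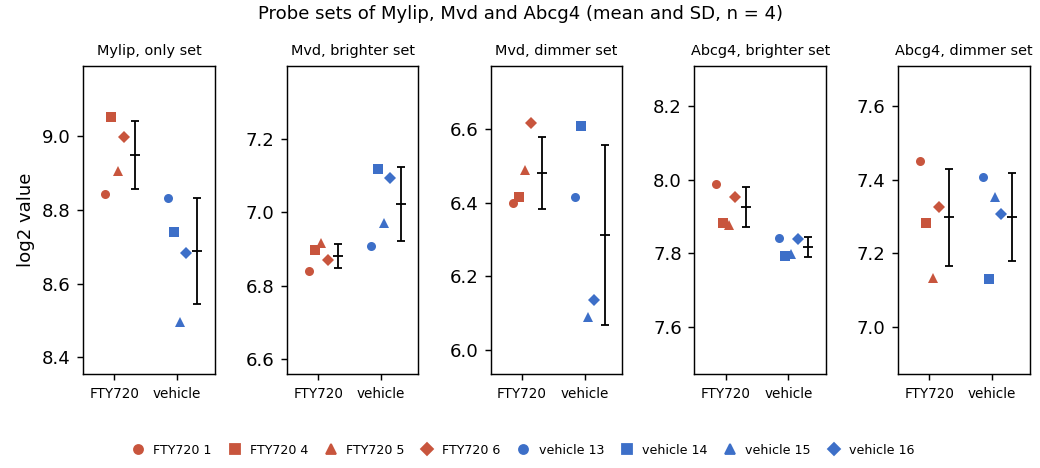
Log2 values per mouse (vertical axes, all of equal span) for every probe set of Mylip, Mvd and Abcg4, with the group mean and SD beside the points, n = 4 mice per group. The groups separate in Mylip and in the brighter set of Abcg4, while the dimmer set of Abcg4 overlaps fully and the 2 sets of Mvd lie in opposite directions.

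Transport starts inside the cell. Npc1 and Npc2, which carry cholesterol out of lysosomes, stood at -0.10 (SE 0.08) and -0.05 (SE 0.08). Lipa, the lysosomal acid lipase that frees cholesterol from its esters, stood at 0.08 (SE 0.05), with 1 of its other 2 probe sets at -0.04. Stard4, a soluble sterol carrier that is itself a target of SREBP-2, stood at 0.07 (SE 0.07).

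Cholesterol leaves cells through ABC transporters. Abca1, the pump that loads apolipoprotein E, gave 9.53, 9.49, 9.40 and 9.41 in FTY720 1, 4, 5 and 6, and 9.29, 9.38, 9.64 and 9.31 in vehicle 13, 14, 15 and 16. Vehicle 15 was the highest mouse of all, while the other 3 vehicle mice lay below all FTY720 mice. The difference was 0.05 (SE 0.08), and 0.13 without vehicle 15 (limma unadjusted p = 0.0397). Abcg1, a partner pump for formed particles, stood at -0.03 (SE 0.05) and Abca2, an endosomal transporter prominent in oligodendrocytes, at 0.0040 (SE 0.06).

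Abcg4, the relative of Abcg1 found mainly in the nervous system, gave 7.99, 7.88, 7.88 and 7.95 in FTY720 1, 4, 5 and 6. In vehicle 13, 14, 15 and 16 it gave 7.84, 7.79, 7.80 and 7.84. The groups did not overlap, and the difference was 0.11 (SE 0.05, limma unadjusted p = 0.0448, adjusted p = 0.746). The second probe set, dimmer at a mean of 7.30 against 7.87, gave 7.45, 7.28, 7.13 and 7.33 in FTY720 mice and 7.41, 7.13, 7.35 and 7.31 in vehicle mice. There the groups overlapped fully, with a difference of -0.0020 (SE 0.08), so the higher value of Abcg4 rests on 1 of 2 probe sets.

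Apoe, the main apolipoprotein of the brain, gave 11.47, 11.59, 11.47 and 11.31 in FTY720 1, 4, 5 and 6, and 11.39, 11.68, 11.32 and 11.30 in vehicle 13, 14, 15 and 16. The highest and the lowest mouse were both vehicle mice, and the difference was 0.04 (SE 0.09). Lcat, which esterifies cholesterol on secreted particles, gave 6.29, 6.22, 6.09 and 6.14 in FTY720 mice and 6.08, 6.26, 5.90 and 6.03 in vehicle mice. Only vehicle 14 reached into the FTY720 range from the upper side, and the difference was 0.12 (SE 0.08, limma adjusted p = 0.826). It was 0.18 without vehicle 14 (limma unadjusted p = 0.0286), 0.06 without vehicle 15 and 0.01 without vehicle 15 and 16. The receptors Lrp1, which takes up apolipoprotein E particles, and Scarb1, which binds high-density lipoprotein, stood at 0.08 (SE 0.06) and 0.06 (SE 0.10). Further probe sets of Scarb1 stood at 0.03 and -0.04.

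Cyp46a1, the neuronal enzyme that makes 24-hydroxycholesterol for export from the brain, gave 9.89, 9.79, 9.88 and 9.86 in FTY720 1, 4, 5 and 6. In vehicle 13, 14, 15 and 16 it gave 9.83, 9.81, 9.83 and 10.03. Vehicle 16 stood above the rest and the other 7 mice lay between 9.79 and 9.89, and the difference was -0.02 (SE 0.06). Of the 13 genes of this group, 9 lay above 0 and 4 below, beside 53.5% of all genes above 0.

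Where members had further probe sets, these were compared with the one used. In all, 18 of the 34 members had 29 further probe sets, of which 18 shared the sign of the set used. None of the 29 had an unadjusted p under 0.05 in limma's test over all probe sets, and their differences ran from -0.14 to 0.17. The spread between mice was wider in the vehicle group in 26 of the 34 members, with a median SD of 0.098 against 0.072 in FTY720 mice. The same count over all genes was not made, so the wider spread cannot be read as particular to the members.

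Myelin holds much of the brain's cholesterol, and its marker genes were set beside the members. Of the 18 listed oligodendrocyte and myelin markers 14 were measured, and all 14 lay below 0, with a median difference of -0.32. At limma's unadjusted p under 0.05, 12 were lower, beside 2.78% of all genes, and none passed adjustment over all genes. This and the other marker lists were chosen with earlier results of these data known, so such counts are a description and not a test. The mean of these 14 markers in each mouse, as log2 distance from the mean of the 8, ran from -0.28 to -0.07 with FTY720 and from -0.06 to 0.31 with vehicle. The gap was narrow, between FTY720 5 at -0.071 and vehicle 13 at -0.063. The mean of the 18 synthesis enzymes ran from -0.020 to 0.033 with FTY720 and from -0.044 to 0.029 with vehicle, so there the groups overlapped. Median differences of the other cell type lists were -0.018 for astrocytes (10 of 10 measured), -0.00045 for neurons (9 of 10), -0.07 for microglia (9 of 10) and -0.05 for endothelium (10 of 10). The lists of neighbouring tissue lay further below 0 than myelin, with medians of -0.74 for thalamus (9 of 9 genes below 0, 5 of them at an unadjusted p under 0.05), -0.53 for choroid plexus (8 of 8 below 0, 0 at that p) and -0.41 for striatum (7 of 7 below 0, 0 at that p). Vehicle 15 had the highest mean of the thalamus (1.40) and striatum (1.20) lists. For thalamus, vehicle 16 (-0.37) lay within the FTY720 range of -0.53 to -0.26. For striatum, vehicle 13 (-0.28) and 14 (-0.24) lay within the FTY720 range of -0.32 to -0.20. The remaining vehicle means of these lists lay above the FTY720 mice. In bulk tissue, fewer cells of a type and less RNA per cell cannot be told apart, and the part of the myelin and neighbouring tissue differences in any member's value was not tested.

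**Figure D4:**
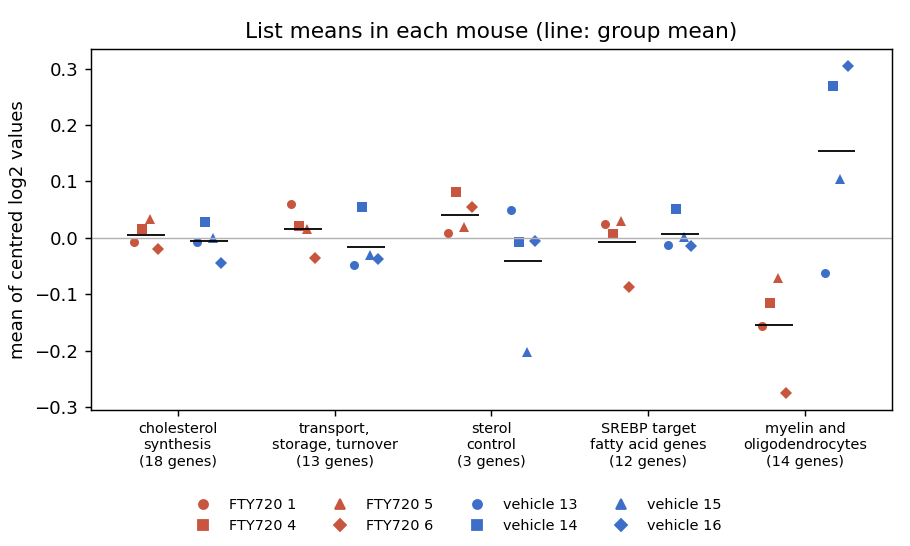
Mean of each gene list in each mouse, as log2 distance from the mean over the 8 mice (vertical axis), with 1 symbol per mouse and a line for the group mean. The means of the 18 synthesis enzymes stay between -0.044 and 0.033 in all 8 mice. Those of the 14 myelin and oligodendrocyte genes run from -0.28 to 0.31, and a narrow gap separates the groups.

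Of 92 other listed genes of the pathway 66 were measured, with a median difference of 0.011. Counted at limma's unadjusted p of 0.05, 3 stood higher and 1 lower, beside 3.86% and 2.78% of all genes, and none passed adjustment over all genes. This share of the 66 was no larger than the 6.64% of all genes in either direction, so the count is not a result about the pathway. Srebf1, which encodes SREBP-1, stood at 0.01 (SE 0.10) and Scap, the escort of both SREBPs, at 0.03 (SE 0.05). The 12 fatty acid genes that SREBPs also drive had a median of -0.0031, from -0.15 for the desaturase Scd1 to 0.11 for the malic enzyme Me1, and 0 counted at that unadjusted p.

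The 4 genes are given as a description and came from the lists of sterol transfer, protein degradation and lipoproteins. Osbpl6, an oxysterol-binding protein relative, gave 7.44, 7.49, 7.37 and 7.35 in FTY720 1, 4, 5 and 6 and 7.18, 7.23, 6.75 and 6.99 in vehicle 13, 14, 15 and 16. All FTY720 mice lay above all vehicle mice, and the difference was 0.37 (SE 0.10, limma adjusted p = 0.634). It was 0.18 with probe sets that can match several transcripts left out, and 0.21 without vehicle 15 and 16. Ube2g2 and Syvn1, a conjugating enzyme and a ligase of degradation at the endoplasmic reticulum, stood at 0.12 (SE 0.04) and 0.12 (SE 0.05). Apod, a lipocalin made by glia, stood at -0.19 (SE 0.08), lower in all 4 FTY720 mice by a narrow gap. Its highest FTY720 mouse, FTY720 4, was at 10.67, with vehicle 15 and 13 at 10.68 and 10.69 and vehicle 14 and 16 at 10.98 and 10.92. The limma unadjusted p of Apod was under 0.05 in 13 of 18 alternatives. The count of 4 was 2 without FTY720 5 or FTY720 6 and 10 without vehicle 13. Over all genes the counts in those fits were 699, 640 and 966, against 823 with all mice.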

How the data were processed

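The authors deposited 1 log2 value per array for each of 22690 probe sets, a scale read from the values themselves. Per the submitters' processing notes, the tools were Affymetrix Expression Console, MAS5 and RMA, and their roles are not given in the sources. Values were used as deposited, with no filter on low signal, so every member with a probe set annotated to it alone was tested.

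The 64 control probe sets and probe sets with several gene symbols (691) or none (1555) were left out, which gave 12393 genes. The groups were contrasted by lmFit and eBayes of limma 3.58.1 (R 4.3.3) over all 8 arrays without a covariate, and p-values were adjusted over all genes by Benjamini-Hochberg. The script was first tested on simulated data.

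Members and lists were chosen with earlier results of these data known, and the hippocampal list was added after the values were seen. Values per mouse are given for members with an unadjusted p under 0.05 or without overlap and for Hmgcs1, Sqle, Fdft1, Dhcr7, Srebf2, Abca1, Apoe, Cyp46a1 and Lcat. Other pathway genes are named at an unadjusted p under 0.05, with Srebf1 and Scap. Vldlr, Lrp8, Scd1, Me1 and single mice of Mvk, Fdps and Sc5d were named after their values were seen. Alternatives covered normalization, filters, choice of probe set, variance models and left-out mice.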

Additional observations from a re-analysis of the deposited data

Results flagged for a closer look

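In 98 groups of 4 mice tested for a mouse far from the others of its group, 6 were found, where chance gives about 1 in 20. Sqle was 9.54 in FTY720 5 against 9.33 to 9.36 in the other FTY720 mice. Srebf2 was 7.70 in FTY720 6 against 7.84 to 7.87. Msmo1 was 9.89 in vehicle 15 against 9.77 to 9.78 in the other vehicle mice, Abca2 was 6.94 in vehicle 14 against at most 6.73, and Cyp46a1 was 10.03 in vehicle 16 against 9.81 to 9.83. The mean of the transport, storage and turnover genes was 0.054 in vehicle 14 against -0.048 to -0.031 in the other vehicle mice. The causes were not tested.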

How the results depend on the processing

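In all 18 alternatives no member and no other gene passed an adjusted p of 0.05, and no member's difference was larger than 0.31. The direction was kept in every alternative by 13 of the 34 members, Mylip among them (0.16 to 0.31), and 21 changed sign in at least 1. The count of members at an unadjusted p under 0.05 was 1 without shared probe sets (those ending in _s_at, _x_at or _a_at), with the probe set of largest variance and with array weights, 0 without vehicle 15 and 16, and 1 to 3 when 1 mouse was left out. Over all genes it was 674 without shared probe sets (10529 genes tested), 853 with the set of largest variance and 863 with array weights. It was 706 without vehicle 15 and 16 and 640 to 966 with 1 mouse left out, against 823 in the main fit. Members without overlap numbered 1 without shared probe sets and with the set of largest variance, 5 without vehicle 15 and 16, and 2 to 5 when 1 mouse was left out. Groups of fewer mice separate more easily, so the counts with mice left out cannot be set beside the share with all mice. Other pathway genes at that p numbered 2 to 10 when 1 mouse was left out, beside the 640 to 966 of all genes. When 1 mouse was left out, the median ran from -0.015 to 0.018 for synthesis, from 0.016 to 0.077 for transport and from -0.0064 (without vehicle 15) to 0.07 for control, whose value with all mice was 0.05. The synthesis median was 0.025 with the set of largest variance, and the transport median was -0.0075 without shared probe sets. That last setting also lost Apoe, Scarb1 and Abcg4. Mvd stood at 0.013 with probe sets averaged and 0.17 with the other 2 choices of probe set, and Abcg4 at -0.0020 with the set of largest variance, since their probe sets disagree. No paired analysis was possible because the groups share no replicate numbers. The p-values measure the spread between 4 mice per group.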
